A study of Mus musculus with 32 samples.

Results

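Mouse 2-cell embryos treated with aphidicolin were compared with metaphase II (MII) oocytes, across every gene and repeat row of the count tables, to see which RNA differences between the ovulated oocyte and the 2-cell embryo are present when replicative DNA synthesis is inhibited. The members were chosen by label alone: both aphidicolin libraries at the 2-cell stage and both MII libraries of 8-week females, 4 of the 32 libraries in the series. Each table holds counts for 55335 gene identifiers and 1153 repeat subfamilies. The aphidicolin embryos were wild type and came from females of 6 to 8 weeks. Embryos of the same genotype and female age treated with the vehicle DMSO (2 libraries) are given beside them, since they passed the same stage without the drug. The MII oocytes were wild type, untreated and from females of 8 weeks, so fertilisation, culture and vehicle cannot be told apart in a comparison with them. Wild-type 2-cell embryos treated with cycloheximide or MG132 (2 libraries each, females of 6 to 8 weeks) entered the fit to estimate the spread. Their levels are given only for Zfp57, Hist1h3f and Hist1h1a. Untreated wild-type 2-cell embryos and MII oocytes of 12-month females (2 libraries each) served to define gene sets and as an alternative oocyte group. The titles of the embryo libraries carry the letters IVF. Not given in the sources used here are the dose of aphidicolin, the hours of treatment, the number of cells per library and whether treated embryos had divided when collected.

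The MII oocyte does not transcribe; it carries a store of maternal messenger RNA that is translated and degraded in a timed order after fertilisation. The embryonic genome is then switched on, weakly in the zygote and strongly at the 2-cell stage, when a set of genes used almost nowhere else (Zscan4 and Usp17l genes among them) and the MERVL endogenous retrovirus are transcribed for a short time. Aphidicolin inhibits the replicative DNA polymerases, so embryos given it before S phase keep unreplicated chromosomes.

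The aphidicolin libraries held 14313718 and 27492854 counts, the DMSO libraries 28566215 and 27332143, and the MII libraries 27590754 and 28216942, so aphidicolin replicate 1 was the shallowest of the 6. Repeats took 18.2% and 17.4% of counts in aphidicolin embryos, 19.9% and 20.8% in DMSO embryos and 6.86% and 5.33% in MII oocytes. Mitochondrial genes took 2.69% and 3.90% of gene counts in aphidicolin embryos, 4.13% and 3.18% in DMSO embryos and 1.81% and 6.48% in MII oocytes; the MII pair thus stood further apart than either embryo pair. The oocyte marker Gdf9, a growth factor secreted by oocytes, was at 219 and 268 CPM with aphidicolin, 161 and 192 with DMSO and 3538 and 2568 in oocytes. Other oocyte genes went both ways. Of 70 oocyte and maternal-effect genes tested, 23 (32.9%) were called lower than in oocytes and 6 (8.57%) higher with aphidicolin. CPM here are counts scaled to library size by TMM over genes and repeats. The 2-cell marker Zscan4d was at 17.2 and 38.8 CPM with aphidicolin, 203 and 399.6 with DMSO and 0.963 and 2.21 in oocytes. Markers of other cells that could accompany oocytes or embryos were summed. The 35 cumulus and granulosa markers summed to 305.4 and 161.7 CPM, unscaled by TMM, in aphidicolin embryos, 186.2 and 151.5 in DMSO embryos and 591.3 and 312.1 in MII oocytes. The 28 sperm and spermatid markers summed to 111.2 and 119.0 in aphidicolin embryos, 145.1 and 117.7 in DMSO embryos and 82.6 and 57.6 in MII oocytes, and the 14 blood markers found to 13.5 and 26.6, to 58.5 and 34.4 and to 2.25 and 3.296 in aphidicolin embryos, DMSO embryos and MII oocytes. Amh among the cumulus markers and Acr and Tssk3 among the sperm markers were at 0 counts in all 6 libraries. Of 29 cumulus markers tested, Serpine2 and Cyp19a1 (6.90%) were lower in aphidicolin embryos than in MII oocytes and none was higher. Of all genes 8.08% were lower and 8.77% higher. The count of 2 lower cumulus markers moved by over 1.5 times when aphidicolin replicate 2 or either MII library was left out. Of 17 sperm markers none was called (1 lower with the replicate block or without MII replicate 1), nor was any of 11 blood markers. The part of such cells in the results was not tested, and in pooled cells fewer cells of a type and less RNA per cell cannot be told apart.

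With aphidicolin, 3652 of 21678 tested genes (16.8%) differed from MII oocytes at an adjusted p under 0.05 (edgeR quasi-likelihood test with Benjamini-Hochberg adjustment over all genes, used for every adjusted p below): 1901 were higher (8.77%) and 1751 lower (8.08%), and 1413 of the higher and 946 of the lower ones differed at least 4-fold. In the same fit, DMSO embryos differed from MII oocytes in 4386 genes (20.2%), 2306 higher (10.6%) and 2080 lower (9.59%). Without DMSO replicate 1 the count was 2083, without MII replicate 1 it was 2764 and without MII replicate 2 it was 2677. Here and below, a count without a library comes from a refit in which the low-count filter kept more genes, 23775 to 24908 against 21678. The shares of all genes given here are the background for the list counts below. The 2 comparisons share their oocyte libraries, so each is given by its own values. Among 15312 protein-coding genes tested, 1533 were higher and 1490 lower in aphidicolin embryos. The median log2 difference over all genes was 0.39 in aphidicolin embryos and 0.37 in DMSO embryos against MII oocytes. In the fit with a filter of 5 CPM in 2 libraries (10803 genes) these medians were 0.033 and 0.0014. Differences of genes at higher counts are to be read against the second pair of medians. The first pair mixes genes at low and higher counts. No median was taken over genes at low counts alone, so neither pair is a baseline for those. The aphidicolin count rested on both pairs of libraries: it was 2178 without aphidicolin replicate 1, 1628 without aphidicolin replicate 2, 2254 without MII replicate 1 and 2349 without MII replicate 2. All values are shares of a library of poly(A) RNA, with no spike-in given, so a change in RNA per embryo, a change relative to other RNAs and a change in tail length cannot be told apart. No label ties libraries to separate cultures or animals, so p-values measure the spread between these libraries, which may be technical.

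Several RNAs of the oocyte store fell steeply in aphidicolin embryos. Mos, the kinase that holds the oocyte at metaphase II, was at 4.98 and 7.73 CPM with aphidicolin, 4.42 and 6.39 with DMSO and 641 and 517 in oocytes. Both embryo groups lay far below both oocyte libraries, and the aphidicolin embryos overlapped the DMSO embryos. Relative to oocytes Mos fell by 6.501 ± 0.68 on the log2 scale (SE; edgeR adjusted p = 0.000273) with aphidicolin and by 6.74 with DMSO. Bub1b, a spindle checkpoint kinase, was at 12.4 and 13.2 CPM with aphidicolin, 17.2 and 15.6 with DMSO and 1402 and 966 in oocytes. It fell by 6.53 ± 0.56 (edgeR adjusted p = 0.000141) with aphidicolin, the groups not overlapping. Sumo2, a small protein attached to other proteins, was at 24.9 and 10.1 CPM with aphidicolin, 15.3 and 11.4 with DMSO and 1514 and 1044 in oocytes, and fell by 6.19 ± 0.53 in aphidicolin embryos. For none of the 3 did the difference between aphidicolin and DMSO embryos pass the test, and the 95% interval of that log2 difference ran -0.96 to 1.44 for Mos, -1.32 to 0.61 for Bub1b and -0.55 to 1.31 for Sumo2.

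Further RNAs of the oocyte store fell as well. H1foo, the oocyte linker histone, was at 621 and 166 CPM with aphidicolin, 349.7 and 371 with DMSO and 13695 and 14415 in oocytes. It fell by 5.16 ± 0.74 in aphidicolin embryos, and the aphidicolin replicates stood on either side of the DMSO pair. Plat, the tissue-type plasminogen activator whose stored RNA is translated at meiotic maturation, was at 50.5 and 33.6 CPM with aphidicolin, 15.7 and 16.2 with DMSO and 832 and 536 in oocytes, and both aphidicolin values lay above both DMSO values while far below both oocyte values. Lsm14b, an RNA-binding protein of oocyte ribonucleoprotein granules, was at 38.2 and 30.7 CPM with aphidicolin, 25.0 and 44.5 with DMSO and 636 and 528 in oocytes. Ndc80, which joins kinetochores to microtubules, was at 22.8 and 11.8 CPM with aphidicolin, 10.2 and 17.8 with DMSO and 334 and 526 in oocytes. The embryo groups overlapped for Lsm14b and Ndc80, with the oocytes above both. Each of the 3 fell in aphidicolin embryos relative to oocytes, with log2 differences of -4.03, -4.08 and -4.64 for Plat, Lsm14b and Ndc80 (edgeR adjusted p = 0.000273, 0.000338 and 0.000288). Tceal9 and Dapl1, also among the 6 largest falls that kept their call without any 1 library, were at 0.300 and 0.515 CPM with aphidicolin and 57.7 and 29.8 in oocytes for Tceal9 and at 0.2402 and 0.0910 CPM with aphidicolin and 14.1 and 11.8 in oocytes for Dapl1. Ins2, an insulin gene, was at 21.9 and 19.6 in oocytes and at 0 counts in all 4 embryo libraries; against a floor of 3 counts over the group it was at least 344-fold lower in aphidicolin embryos, a bound for counting error only.

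Not every maternal RNA fell as far. Dppa3, a maternal protein that protects the maternal genome from demethylation after fertilisation, was at 4063 and 4693 CPM with aphidicolin, 4171 and 6965 with DMSO and 14612 and 18489.9 in oocytes. With aphidicolin it fell by 1.92 ± 0.37 (edgeR adjusted p = 0.00471), with no overlap between embryo and oocyte libraries. Zp3, a protein of the oocyte coat, was at 15.97 and 20.2 CPM with aphidicolin and 70.8 and 49.8 in oocytes, and fell by 1.74, a change that lost its call without either aphidicolin library or without MII replicate 1. Btg4, an adaptor of maternal RNA deadenylation, was at 5670.4 and 5900.5 CPM with aphidicolin, 6101 and 7214 with DMSO and 10216 and 11939 in oocytes; its log2 difference of -0.94 did not pass the test (edgeR adjusted p = 0.0623, and 0.0322 with a replicate block). Obox2, a homeobox gene of oocytes, was at 383 and 758 CPM with aphidicolin, 183 and 175 with DMSO and 17345 and 18465 in oocytes. All 4 embryo libraries were far below the oocytes and both aphidicolin values were above both DMSO values, a difference of 1.67 that did not pass the test (edgeR adjusted p = 0.251); reads may be shared among near-identical Obox copies.

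Genes higher than in oocytes were found beside the falls. Derl3, part of the machinery that removes misfolded proteins from the endoplasmic reticulum, was at 70.8 and 98.0 CPM with aphidicolin, 39.4 and 37.4 with DMSO and 1.67 and 2.27 in oocytes. Both embryo groups were above both oocyte libraries, and aphidicolin was above DMSO in both replicates. Derl3 rose by 5.42 ± 0.61 with aphidicolin relative to oocytes (edgeR adjusted p = 0.00036) and by 4.28 with DMSO. Psmf1, an inhibitor of the proteasome, was at 151 and 189 CPM with aphidicolin, 51.3 and 114 with DMSO and 5.53 and 4.97 in oocytes and rose by 5.02 ± 0.53 with aphidicolin (edgeR adjusted p = 0.000273). Eef1a1, the translation elongation factor, was at 421 and 606 CPM with aphidicolin, 208 and 319 with DMSO and 34.7 and 11.8 in oocytes and rose by 4.47 ± 0.62 (edgeR adjusted p = 0.000978). Mapk3, the kinase ERK1, was at 133 and 164 CPM with aphidicolin, 74.0 and 105 with DMSO and 10.8 and 14.9 in oocytes and rose by 3.53 ± 0.46 (edgeR adjusted p = 0.000804). For Psmf1, Eef1a1 and Mapk3 too, both aphidicolin values were above both DMSO values and all embryo values above all oocyte values. The difference between aphidicolin and DMSO did not pass the test for any of these 4 genes. Its 95% interval ran 0.04 to 2.23 for Derl3 and -0.20 to 2.13 for Eef1a1. Gstm6 was at 9.97 and 14.8 CPM with aphidicolin, 4.63 and 10.6 with DMSO and 0.507 and 0 in oocytes. It rose by 5.56 ± 1.01 with aphidicolin (edgeR adjusted p = 0.00379), and the embryo groups overlapped. Myc, a transcription factor of growth, was at 29.7 and 4.34 CPM with aphidicolin, 10.8 and 8.05 with DMSO and 0.101 and 0.0553 in oocytes; the oocyte libraries hold 3 counts together, so only the call is given (edgeR adjusted p = 0.00481), and the aphidicolin replicates lay on either side of the DMSO pair. Zfp57, which keeps methylation at imprinted genes, was at 1538 and 793 CPM with aphidicolin, 264 and 329.6 with DMSO and 212 and 204 in oocytes. The aphidicolin pair thus lay above the DMSO and oocyte pairs. Zfp57 was also high in the other drug-treated 2-cell embryos, at 1778 and 1955.5 CPM with cycloheximide and 1251 and 1732 with MG132. It rose by 2.49 ± 0.39 with aphidicolin (edgeR adjusted p = 0.00187), its DMSO difference of 0.51 did not pass (edgeR adjusted p = 0.334), and the difference between them, 1.97, did not pass either (edgeR adjusted p = 0.122).

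**Figure D1:**
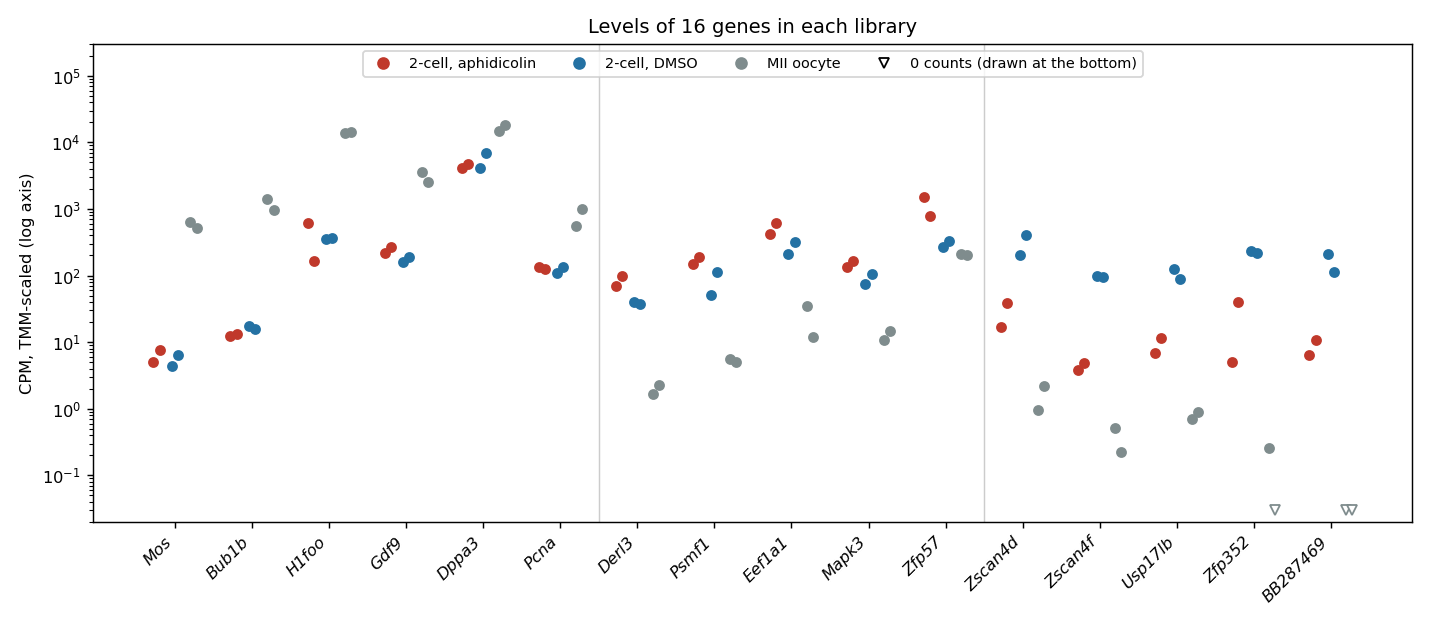
Level of 16 genes in each library (points; TMM-scaled CPM, log axis) in aphidicolin 2-cell embryos (red), DMSO 2-cell embryos (blue) and MII oocytes (grey), with libraries at 0 counts as open triangles. Stored RNAs on the left lie low in both embryo groups, the genes in the middle lie above oocytes in aphidicolin embryos, and the 2-cell-stage genes on the right lie between DMSO embryos and oocytes in both aphidicolin libraries.

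To place all genes on a scale independent of these libraries, 2 sets were taken from untreated females of 12 months: the zygotic set, 1708 of 17178 genes (9.94%) called and at least 4-fold higher in 2-cell embryos than in MII oocytes, and the maternal set, 1020 genes (5.94%) called and at least 4-fold lower. Of 995 maternal genes tested, 613 (61.6%) were lower in aphidicolin embryos and 697 (70.1%) in DMSO embryos than in 8-week oocytes, against 8.08% and 9.59% of all genes. A single member, Mtfr2, was higher with aphidicolin and a single member, B4galt1, with DMSO (2 with the block), both named after their values were seen. The set's median log2 difference from oocytes was -2.22 with aphidicolin and -2.54 with DMSO. Summed, the maternal set took 4.73% and 3.48% of CPM in aphidicolin embryos, 2.53% and 3.27% in DMSO embryos and 29.8% and 27.3% in MII oocytes. Without aphidicolin replicate 2 the count of lower maternal genes was 384.

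Of 1586 zygotic genes tested, 594 (37.5%) were higher in aphidicolin embryos and 881 (55.5%) in DMSO embryos than in oocytes, against 8.77% and 10.6% of all genes. The count with aphidicolin was 360 without aphidicolin replicate 2, 351 without MII replicate 1 and 378 without MII replicate 2. Rrs1, Zfp985 and Gm15389 were lower with aphidicolin, and Lmntd1, Kcnq3, Rrs1 and Gm15389 with DMSO, all named after their values were seen. The set took 1.84% and 2.11% of CPM in aphidicolin embryos, 2.62% and 2.75% in DMSO embryos and 0.307% and 0.390% in MII oocytes, so the groups did not overlap. Its median log2 difference from oocytes was 3.39 with aphidicolin and 4.32 with DMSO, or 2.73 and 3.56 with genes at 0 counts in a whole group put at their bound.

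The zygotic set was not uniform. The 1266 tested members under 1 CPM in 12-month oocytes, that is genes the oocyte hardly carries, were called higher in 385 cases (30.4%) with aphidicolin and 649 (51.3%) with DMSO, with medians of 4.04 and 5.87 (2.83 and 4.11 with genes at 0 counts at their bound). The 320 members at 1 CPM or more, which the oocyte already holds, were called higher in 209 cases (65.3%) with aphidicolin and 232 (72.5%) with DMSO, with medians of 2.50 and 2.46. The 2 groups differ in level. Median levels in the aphidicolin libraries were 0.72 and 1.43 CPM in the first group and 14.8 and 17.5 in the second. Low counts limit the calls, so called shares cannot be compared between groups of unlike level. Levels of the size classes that follow were not compared. By size of the rise in the 12-month libraries, genes 4-fold to 8-fold higher there were called in 230 of 403 cases with aphidicolin and 239 with DMSO, genes 8-fold to 32-fold higher in 107 of 358 and 177, and genes over 32-fold higher in 257 of 825 and 465. The median log2 difference between aphidicolin and DMSO embryos was 0.28 in the first of these classes, -0.87 in the second and -1.97 in the third, against -0.0025 over all genes.

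**Figure D2:**
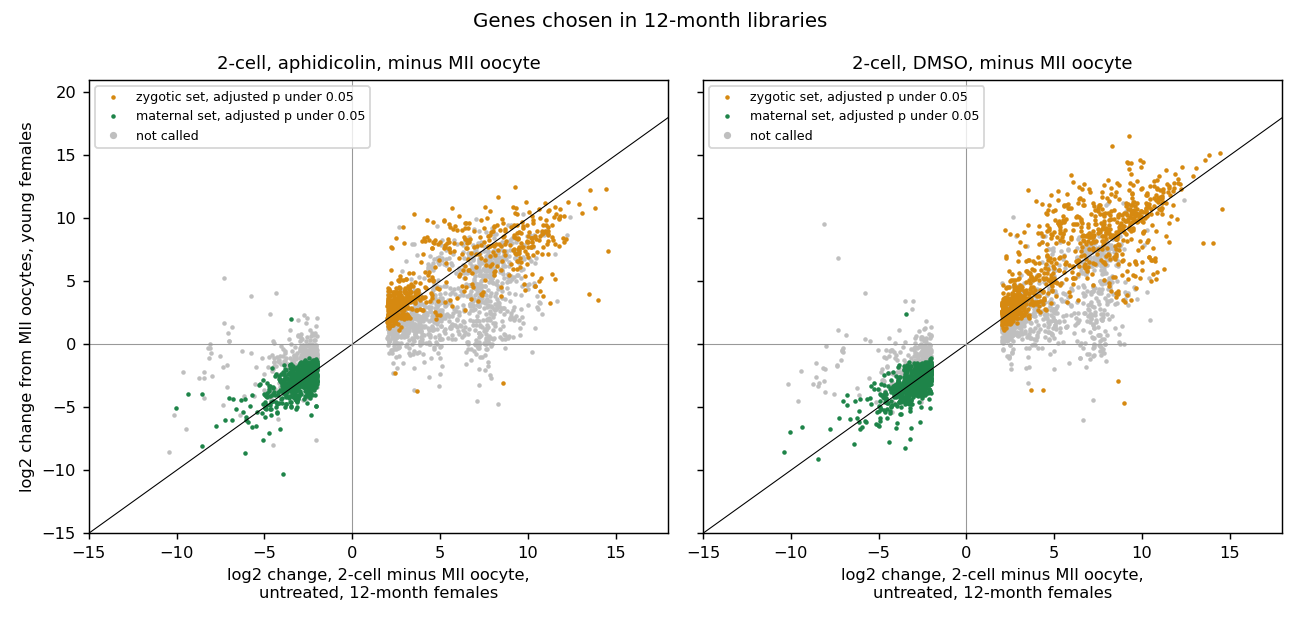
Log2 difference from 8-week MII oocytes in aphidicolin embryos (left) and DMSO embryos (right), against the log2 difference of untreated 2-cell embryos from MII oocytes of 12-month females, one point per gene of the zygotic (orange) and maternal (green) sets, grey where not called; the diagonal marks equal values. The maternal points have medians of -2.22 with aphidicolin and -2.54 with DMSO, and zygotic points over 32-fold higher at 12 months lie lower with aphidicolin, with medians of 5.71 and 7.51 (3.11 and 4.90 with genes at 0 counts at their bound).

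Of 51 tested genes transcribed briefly at the 2-cell stage, 27 (52.9%) rose with aphidicolin and 36 (70.6%) with DMSO relative to oocytes, against 8.77% and 10.6% of all genes; Fgf1, Fbxo15 and Tcstv1 fell with aphidicolin and none with DMSO (1 with the block). That count of 3 was 0 without aphidicolin replicate 1, 1 without replicate 2 and 5 without either cycloheximide library. The list's median log2 difference from oocytes was 3.88 with aphidicolin and 7.16 with DMSO (3.54 and 6.93 at the bound). Between aphidicolin and DMSO embryos the list's median log2 difference was -2.73, against -0.0025 over all genes. Many of these genes have near-identical copies, so the split of reads among copies is uncertain.

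The promoter windows of 4 genes of this list, whose levels stood between oocytes and DMSO embryos, are shown beside those of Derl3 and Psmf1, which stood above both. They are RefSeq windows of 250 bases before to 50 after the start (build GRCm38.p6), 5′ to 3′ on the gene's strand. The windows lie at chr7:11166099-11166398 (minus strand) for Zscan4d, chr7:11397665-11397964 (plus) for Zscan4f, chr4:90218570-90218869 (plus) for Zfp352, chr7:104842534-104842833 (minus) for Usp17lb, chr10:75893148-75893447 (plus) for Derl3 and chr2:151741261-151741560 (minus) for Psmf1. Capitals mark TATAAA (the TATA box), CCAAT (the box bound by NF-Y), GGGCGG (the GC box bound by Sp1) and TAATCC (bound by OTX-type homeodomains), on either strand, so that CCAAT on the opposite strand reads ATTGG.
Zscan4d: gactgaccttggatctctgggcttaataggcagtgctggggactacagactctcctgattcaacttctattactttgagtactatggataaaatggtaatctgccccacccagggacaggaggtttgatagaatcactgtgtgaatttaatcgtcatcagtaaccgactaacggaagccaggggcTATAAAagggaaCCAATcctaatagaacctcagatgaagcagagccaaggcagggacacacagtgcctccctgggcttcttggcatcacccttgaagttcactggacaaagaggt
Zscan4f: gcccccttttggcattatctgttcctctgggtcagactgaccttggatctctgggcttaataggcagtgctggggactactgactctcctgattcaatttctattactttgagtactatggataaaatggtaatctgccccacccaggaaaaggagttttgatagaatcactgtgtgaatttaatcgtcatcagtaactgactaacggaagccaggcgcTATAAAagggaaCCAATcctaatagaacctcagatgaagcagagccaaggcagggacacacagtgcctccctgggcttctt
Zfp352: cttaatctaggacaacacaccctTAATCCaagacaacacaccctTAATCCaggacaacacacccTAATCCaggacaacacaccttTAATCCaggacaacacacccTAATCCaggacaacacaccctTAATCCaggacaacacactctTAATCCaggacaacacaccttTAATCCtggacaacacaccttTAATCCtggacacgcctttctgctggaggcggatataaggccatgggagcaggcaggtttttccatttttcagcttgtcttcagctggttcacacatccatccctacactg
Usp17lb: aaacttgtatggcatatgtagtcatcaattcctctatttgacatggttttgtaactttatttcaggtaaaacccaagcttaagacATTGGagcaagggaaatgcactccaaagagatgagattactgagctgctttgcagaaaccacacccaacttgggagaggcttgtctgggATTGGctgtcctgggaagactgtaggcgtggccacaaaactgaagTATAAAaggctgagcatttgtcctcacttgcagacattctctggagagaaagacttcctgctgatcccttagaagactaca
Derl3: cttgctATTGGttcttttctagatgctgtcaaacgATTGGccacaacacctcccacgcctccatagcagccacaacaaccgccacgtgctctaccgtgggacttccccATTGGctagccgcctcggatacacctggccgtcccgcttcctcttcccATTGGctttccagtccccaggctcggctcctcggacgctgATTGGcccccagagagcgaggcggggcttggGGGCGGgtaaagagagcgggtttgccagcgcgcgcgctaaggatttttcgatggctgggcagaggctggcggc
Psmf1: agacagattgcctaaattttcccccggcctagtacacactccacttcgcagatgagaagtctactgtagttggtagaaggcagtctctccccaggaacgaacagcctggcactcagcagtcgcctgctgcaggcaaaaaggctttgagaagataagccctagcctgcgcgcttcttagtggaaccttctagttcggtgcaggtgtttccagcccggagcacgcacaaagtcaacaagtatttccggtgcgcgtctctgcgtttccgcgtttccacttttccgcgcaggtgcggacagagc
The Zscan4d and Zscan4f windows share 97.4% of bases over 266 aligned positions, with 7 mismatches, and each holds a TATAAA and a CCAAT. Zfp352 holds 9 copies of TAATCC, Usp17lb a TATAAA and CCAAT in 2 places, Derl3 CCAAT in 5 places and 1 GGGCGG, and Psmf1 none of the 4. Of 32 promoters of 2-cell-stage genes in the table, 28.1% held TATAAA, 21.9% TAATCC, 56.2% CCAAT and 25.0% GGGCGG, against 13.6%, 7.06%, 37.4% and 35.7% of all 32851 promoters. The 1120 promoters of zygotic genes held them in 11.9%, 11.2%, 42.1% and 45%, and the 835 of maternal genes in 8.74%, 5.51%, 39.4% and 56.4%. A match is a description of these letters, not a site in use.

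Zscan4d, a gene of telomere maintenance in early embryos, rose by 4.14 ± 0.62 with aphidicolin relative to oocytes (edgeR adjusted p = 0.00141), at the levels given above, and by 7.57 with DMSO. All 3 groups were apart, and the difference between aphidicolin and DMSO was -3.43 (95% interval -4.68 to -2.17; edgeR adjusted p = 0.0752, and 0.00238 with the replicate block). Zfp352, a zinc finger gene that arose by retroposition, was at 4.98 and 40.5 CPM with aphidicolin, 238 and 219.5 with DMSO and 0.253 and 0 in oocytes. Its aphidicolin replicates stood apart, and its rise over oocytes (edgeR adjusted p = 0.00562) lost its call without either MII library. Usp17la, of a family of deubiquitinating enzymes, was at 6.48 and 6.88 CPM with aphidicolin, 106 and 55.0 with DMSO and 0 counts in both MII libraries, at least 85.1-fold higher with aphidicolin than the floor of 3 counts over the oocyte group. Zfp353-ps was at 8.59 and 14.7 CPM with aphidicolin, 61.8 and 38.8 with DMSO and 0 counts in MII oocytes, at least 159-fold higher with aphidicolin. Gm8300 was at 2.46 and 26.9 CPM with aphidicolin, 196 and 200.2 with DMSO and 0.0507 and 0 in oocytes, and Usp17lc at 6.00 and 15.1 CPM with aphidicolin, 37.4 and 23.3 with DMSO and 0.0507 and 0 in oocytes. In each of Usp17la, Zfp353-ps, Gm8300 and Usp17lc the aphidicolin pair lay above the oocytes and below the DMSO pair. The direct difference from DMSO did not pass for Usp17la (edgeR adjusted p = 0.0698) without the block and did with it (0.023); Gm8300 likewise (0.161 and 0.0404 adjusted p). Olfr881, outside the list, had the same order of groups, at 4.50 and 21.9 CPM with aphidicolin, 49.3 and 37.6 with DMSO and 0.253 and 0 in oocytes.

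Tested directly, aphidicolin embryos differed from DMSO embryos in 7 of 21678 genes (0.0323%), all lower and all at least 4-fold, and in no gene higher; an unadjusted p under 0.05 was reached by 872 higher and 1044 lower genes, and DESeq2 called 86 higher and 218 lower. This comparison is also the test of whether the change from oocytes differed, since the oocyte term cancels. The 95% intervals were wide, with a median half-width of 1.82 on the log2 scale, and in 5.74% of genes the interval lay within 2-fold either way. The 7 genes, named after their values were seen, were Zscan4f, Zscan4-ps3, Usp17lb, BB287469, Gm2022, Gm2035 and Efna1. Zscan4f was at 3.84 and 4.79 CPM with aphidicolin, 97.2 and 96.7 with DMSO and 0.507 and 0.221 in oocytes. BB287469 was at 6.42 and 10.8 CPM with aphidicolin, 211 and 114 with DMSO and 0 counts in MII oocytes. Usp17lb was at 6.90 and 11.4 CPM with aphidicolin, 124 and 87.5 with DMSO and 0.710 and 0.884 in oocytes. In all 3 the aphidicolin pair lay above the oocytes and far below the DMSO pair. The log2 difference between aphidicolin and DMSO was -4.48 ± 0.58 for Zscan4f, -4.23 ± 0.49 for BB287469 and -3.52 ± 0.44 for Usp17lb (SE; edgeR adjusted p = 0.0289, 0.0289 and 0.0289). Efna1, a membrane ligand of Eph receptors and a member of the maternal set, ran the other way, at 1.86 and 1.24 CPM with aphidicolin, 16.1 and 10.002 with DMSO and 79.1 and 68.3 in oocytes: the oocyte level was highest and both embryo groups had fallen, aphidicolin embryos further than DMSO embryos (difference -3.09 ± 0.43; edgeR adjusted p = 0.0378).

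The calls between aphidicolin and DMSO embryos depended on the libraries in the fit and on the low-count filter. Leaving out a library left a group of 1, so the filter kept more genes, 23775 to 24908 against 21678. These effects cannot be told apart in the calls. There were 0 without aphidicolin replicate 1 or without DMSO replicate 1, 57 without aphidicolin replicate 2, 45 and 46 without cycloheximide replicate 1 or 2, 31 and 25 without MG132 replicate 1 or 2 and 46 without either MII library, while a block on the replicate number gave 38 lower and 1 higher gene. In the zygotic set 6 members were lower with aphidicolin than with DMSO (31 with the block) and none higher; in the count without a library it was 0 without aphidicolin replicate 1 or DMSO replicate 1, 49 without aphidicolin replicate 2 and 23 to 39 without a cycloheximide, MG132 or MII library. Of the 1586 zygotic genes, 1111 had a negative difference, 368 an interval wholly below 0, 39 wholly above 0 and 13 within 2-fold either way. For comparison with these and the following interval counts, 1044 lower and 872 higher of all 21678 genes reached an unadjusted edgeR p under 0.05. Over all genes 5.74% of intervals lay within 2-fold either way. In the maternal set Efna1 alone was called lower (2 genes with the block) and none higher, the median difference was 0.32, and 142 intervals lay above 0 against 39 below it. Of the 51 genes of the 2-cell stage, 3 were called lower than with DMSO (11 with the block). That count was 0 without aphidicolin replicate 1 or DMSO replicate 1, and 8 to 10 without aphidicolin replicate 2 or a cycloheximide, MG132 or MII library. In the list 33 intervals lay below 0, 16 included it and 2 lay above. The 2 above 0 were Arg2, an arginase, and Zfp750. Arg2 was at 155 and 102 CPM with aphidicolin, 38.6 and 65.8 with DMSO and 18.1 and 19.8 in oocytes, so the aphidicolin pair was above the DMSO and oocyte pairs.

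**Figure D3:**
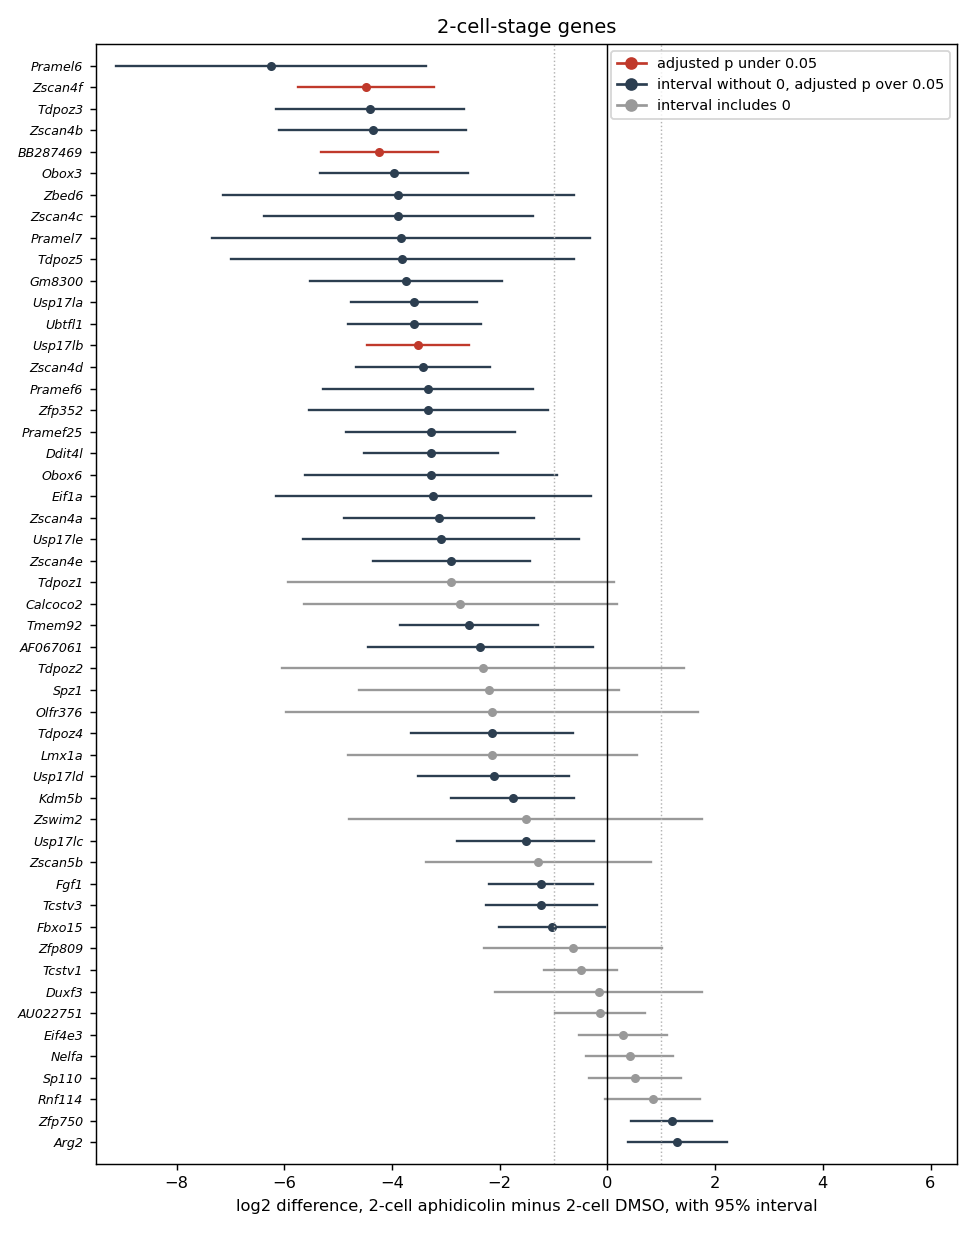
Log2 difference of aphidicolin minus DMSO 2-cell embryos (points) with its 95% interval (bars) for the 51 tested 2-cell-stage genes, red where the adjusted p was under 0.05; dotted lines mark 2-fold either way. The intervals of 33 genes lie below 0, 16 include it, and Zfp750 and Arg2 lie above it.

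Of 34 tested regulators of genome activation, 12 (35.3%) were higher and 6 (17.6%) lower in aphidicolin embryos than in oocytes, against 8.77% and 8.08% of all genes. With DMSO 13 were higher and 6 lower, against 10.6% and 9.59% of all genes. The median difference between drug and vehicle was -0.23, with no regulator called (1 lower with the block). The 12 higher regulators were 7 without aphidicolin replicate 2. They were 6 without either MII library. Nfyb, a subunit of the CCAAT-binding factor NF-Y, was at 15.2 and 8.22 CPM with aphidicolin, 6.20 and 6.91 with DMSO and 59.2 and 63.0 in oocytes, the oocytes above both embryo groups. Of 30 immediate-early genes, 4 (13.3%) were higher and 2 (6.67%) lower with aphidicolin, and 10 (33.3%) and 1 with DMSO. The 2 lower ones became 1 without either aphidicolin library, either cycloheximide library or MII replicate 1. Egr1, a zinc finger factor induced by growth signals, was at 12.9 and 13.7 CPM with aphidicolin, 9.17 and 9.94 with DMSO and 1.52 and 1.49 in oocytes and rose by 3.14 ± 0.46 (edgeR adjusted p = 0.00128). Dusp1, a phosphatase of MAP kinases, was at 31.9 and 28.6 CPM with aphidicolin, 18.8 and 23.0 with DMSO and 120.1 and 123 in oocytes and fell by 2.01 ± 0.33. Btg1, an antiproliferative adaptor, was at 13.7 and 4.06 CPM with aphidicolin, 78.7 and 41.8 with DMSO and 281 and 56.2 in oocytes; its fall lost its call without either aphidicolin library, either cycloheximide library or MII replicate 1, and its difference between aphidicolin and DMSO passed only with the block (edgeR adjusted p = 0.438, and 0.0156 with the block).

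Of 70 oocyte and maternal-effect genes tested, 23 (32.9%) were lower and 6 (8.57%) higher with aphidicolin, against 8.08% and 8.77% of all genes. With DMSO 35 were lower and 3 higher (5 higher with the block). The list's median log2 differences from oocytes were -0.73 with aphidicolin and -1.23 with DMSO. Among 33 genes of meiotic arrest and exit, 7 (21.2%) were higher and 9 (27.3%) lower with aphidicolin (6 and 11 with DMSO). Fzr1, which activates the anaphase-promoting complex, was at 10.3 and 16.3 CPM with aphidicolin, 8.84 and 9.32 with DMSO and 1.57 and 0.884 in oocytes and rose by 3.43 ± 0.60. The 49 genes of maternal RNA storage and decay split into 6 higher (12.2%) and 5 lower (10.2%), or 10 and 8 with the block. The shares of all genes were 8.77% and 8.08%. Ybx2, an RNA-masking protein of germ cells, was at 32.4 and 60.4 CPM with aphidicolin, 31.9 and 50.2 with DMSO and 3.50 and 6.74 in oocytes. Pabpc1l, the oocyte poly(A)-binding protein, was at 24.3 and 36.1 CPM with aphidicolin, 10.05 and 19.5 with DMSO and 6.54 and 3.04 in oocytes. Both rose with aphidicolin relative to oocytes, by 3.18 and 2.65 for Ybx2 and Pabpc1l (edgeR adjusted p = 0.00306 and 0.00434), with all 4 embryo libraries above both oocyte libraries. Zar1, needed for the oocyte to embryo transition, was at 26.5 and 24.7 CPM with aphidicolin, 10.3 and 18.05 with DMSO and 188 and 139 in oocytes and fell by 2.67 ± 0.43. Without aphidicolin replicate 2, the lower members numbered 14 in the oocyte and maternal-effect list and 4 among the genes of meiotic arrest and exit.

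Genes that carry out or sense DNA replication were read next, since the drug acts on that step. Of 67 replication and licensing genes tested, 7 (10.4%) were higher and 15 (22.4%) lower with aphidicolin than in oocytes, and 7 and 17 with DMSO. Of all genes 8.77% were higher and 8.08% lower with aphidicolin. The list's median difference between drug and vehicle was 0.12. In 16 members the interval of that difference lay within 2-fold either way, against 5.74% of all genes. The higher genes numbered 4 without either aphidicolin library or MII replicate 2, and the lower ones 6 without aphidicolin replicate 2. Pcna, the sliding clamp, was at 132.3 and 127 CPM with aphidicolin, 109 and 136 with DMSO and 560.3 and 1009 in oocytes. Orc6, of the origin recognition complex, was at 361 and 265 CPM with aphidicolin, 267 and 355 with DMSO and 2043 and 3053 in oocytes. Both fell in aphidicolin embryos, with log2 differences of -2.60 ± 0.37 for Pcna and -3.02 ± 0.39 for Orc6 (edgeR adjusted p = 0.00115 and 0.000693), the embryo groups overlapping each other and not the oocytes. The interval of the difference from DMSO was -0.68 to 0.85 for Pcna and -0.77 to 0.79 for Orc6, within 2-fold either way. Prim2, a primase subunit, was at 13.99 and 4.46 CPM with aphidicolin, 10.9 and 9.94 with DMSO and 97.2 and 48.1 in oocytes, lower than in oocytes in all 4 embryo libraries. Chaf1b and Chaf1a, subunits of the chromatin assembly factor that loads histones behind the fork, went the other way: Chaf1b was at 11.3 and 21.6 CPM with aphidicolin, 13.1 and 14.6 with DMSO and 1.52 and 2.10 in oocytes and Chaf1a at 29.8 and 27.3 CPM with aphidicolin, 14.6 and 18.9 with DMSO and 5.78 and 7.08 in oocytes, with rises over oocytes of 3.18 and 2.15 for Chaf1b and Chaf1a in aphidicolin embryos.

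In the replication checkpoint list 3 of 42 members (7.14%) were higher and 5 (11.9%) lower than in oocytes with aphidicolin, near the 8.77% and 8.08% of all genes (5 and 8 members with the block), and 4 and 7 with DMSO. No checkpoint gene was higher without either aphidicolin library, either MG132 library or MII replicate 2. The 5 lower ones became 2 without aphidicolin replicate 2 and 3 without MII replicate 1. Rad1, a part of the checkpoint clamp, was at 21.7 and 18.1 CPM with aphidicolin, 18.1 and 18.7 with DMSO and 101 and 69.5 in oocytes. Tipin, which stabilises stalled forks, was at 226 and 276 CPM with aphidicolin, 275 and 438 with DMSO and 1079.8 and 942 in oocytes. The embryo groups overlapped for Rad1, and for Tipin aphidicolin replicate 2 stood just above DMSO replicate 1; both genes fell relative to oocytes, with log2 differences of -2.10 and -2.01 for Rad1 and Tipin (edgeR adjusted p = 0.00336 and 0.00311). Fancd2, of the Fanconi crosslink repair pathway, was at 8.95 and 6.40 CPM with aphidicolin, 3.34 and 2.15 with DMSO and 34.9 and 28.4 in oocytes, with both aphidicolin values above both DMSO values. Of 39 p53 targets, 3 were higher and 3 lower with aphidicolin (7.69% each way), near the shares over all genes, and 7 and 5 with DMSO. Cdkn1a, the p53-induced inhibitor of cyclin-dependent kinases, was at 2.22 and 5.79 CPM with aphidicolin, 12.3 and 9.45 with DMSO and 1.22 and 1.55 in oocytes; its difference from oocytes did not pass with aphidicolin (log2 1.54, edgeR adjusted p = 0.112) and did with DMSO (2.97, adjusted p = 0.00871), and the difference between them was -1.43 (95% interval -2.76 to -0.11; edgeR adjusted p = 0.536). Plk2, a kinase that p53 can induce, was at 45.4 and 13.2 CPM with aphidicolin, 20.6 and 13.5 with DMSO and 2.43 and 3.37 in oocytes and rose by 3.33 ± 0.62. Ckap2, Ddb2 and Rps27l fell with aphidicolin, with log2 differences of -2.23, -1.98 and -2.21.

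Among 64 mitosis and spindle genes, 5 (7.81%) were higher and 18 (28.1%) lower with aphidicolin, against 8.77% and 8.08% of all genes. With DMSO 2 (4 with the block) were higher and 23 lower. With aphidicolin, the 5 higher ones became 2 without either aphidicolin library and 3 without either MII library. The 18 lower ones became 9 without aphidicolin replicate 2. Cdc25b, a phosphatase that starts M phase, was at 26.2 and 46.7 CPM with aphidicolin, 23.0 and 34.9 with DMSO and 2.89 and 6.08 in oocytes and rose by 3.02 ± 0.62. Smc4, a condensin subunit, was at 71.3 and 51.9 CPM with aphidicolin and 1373 and 272 in oocytes, and fell by 3.74 ± 0.65 although the oocyte replicates were far apart. Ccna2, cyclin A2, was at 108 and 131 CPM with aphidicolin, 208 and 127 with DMSO and 159.9 and 178 in oocytes, and neither its difference from oocytes (-0.50, edgeR adjusted p = 0.357) nor that from DMSO embryos (-0.48, edgeR adjusted p = 0.795) passed. Nucleotide synthesis genes were called in 4 of 33 cases, 3 higher (9.09%) and 1 lower (3.03%) with aphidicolin (4 and 2 with the block). Of all genes 8.77% were higher and 8.08% lower, so the higher share was near background. Without aphidicolin replicate 2 the counts were 1 and 0. Without MII replicate 1 they were 1 and 2. The lower count was also 0 without aphidicolin replicate 1 and 2 without a cycloheximide or DMSO library. Rrm2, the small subunit of ribonucleotide reductase, was at 53.1 and 57.6 CPM with aphidicolin, 76.1 and 85.4 with DMSO and 135 and 157 in oocytes; its log2 difference of -1.40 lost its call without either aphidicolin library or without MII replicate 2. Prps1, which makes the precursor of all nucleotides, was at 7.14 and 20.01 CPM with aphidicolin, 97.3 and 68.7 with DMSO and 2.08 and 3.32 in oocytes, the aphidicolin pair above oocytes and below DMSO.

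Replication-dependent core histones, whose RNA is normally tied to S phase, were higher than in oocytes in 7 (17.1%) and lower in 2 (4.88%) of 41 tested members with aphidicolin, and in 5 and 2 with DMSO, with medians of 1.64 and 1.39; these messages lack a poly(A) tail in most cells, and copies share sequence, so the values hold for the reads that this method captured. The 7 higher core histones became 4 without aphidicolin replicate 1 and 3 without MII replicate 1. The 2 lower ones became 0 without either of these and 1 without aphidicolin replicate 2. Hist1h3f was at 16.5 and 17.0 CPM with aphidicolin, 4.63 and 7.30 with DMSO and 2.23 and 3.26 in oocytes, both aphidicolin values above the DMSO and oocyte values. Its rise of 2.61 ± 0.59 lost its call without MII replicate 1. Hist1h1a, a linker histone of the S phase type, was at 65.1 and 72.7 CPM with aphidicolin, 33.7 and 21.4 with DMSO and 10.9 and 19.9 in oocytes, and its rise of 2.16 ± 0.45 likewise. Both histones were also above the DMSO and oocyte values in the other drug-treated 2-cell embryos. Hist1h3f was at 10.1 and 21.5 CPM with cycloheximide and 28.4 and 90.0 with MG132. Hist1h1a was at 133 and 108 CPM with cycloheximide and 85.3 and 180 with MG132. Of the methylation and chromatin genes, 4 of 46 (8.70%) were higher and 7 (15.2%) lower, against 8.77% and 8.08% of all genes. The counts were 1 and 3 without aphidicolin replicate 1 or MII replicate 1. They were 2 and 2 without aphidicolin replicate 2, and 1 and 5 without MII replicate 2. Dnmt1, the maintenance methyltransferase, was at 50.6 and 37.6 CPM with aphidicolin, 37.1 and 29.0 with DMSO and 267 and 216 in oocytes and fell by 2.45 ± 0.34 (edgeR adjusted p = 0.00101).

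Of 84 cytosolic ribosomal protein genes, 3 (3.57%) were higher and 13 (15.5%) lower with aphidicolin than in oocytes (6 and 19 with the block), against 8.77% and 8.08% of all genes, and 15 and 10 with DMSO; 68 of 84 had a negative difference between aphidicolin and DMSO, with a median of -0.83 and no member called. The 13 lower ones became 6 without aphidicolin replicate 1 and 21 without either cycloheximide library, and the 3 higher ones 1 without aphidicolin replicate 2. Rpl13, of the large subunit, was at 4.56 and 4.31 CPM with aphidicolin, 17.5 and 12.4 with DMSO and 79.3 and 68.2 in oocytes, in 3 groups that did not overlap, and fell by 4.05 ± 0.39 with aphidicolin (edgeR adjusted p = 0.000238). The difference of Rpl13 from DMSO was -1.75 (edgeR adjusted p = 0.133). Of 81 ribosome biogenesis genes 5 (6.17%) were higher and 19 (23.5%) lower with aphidicolin, and 10 and 21 with DMSO. The higher ones became 2 when any 1 of the 4 libraries compared was left out. The lower ones became 11 without aphidicolin replicate 1 and 7 without replicate 2. Ebna1bp2, a nucleolar factor of the large subunit, was at 9.67 and 9.25 CPM with aphidicolin, 28.7 and 28.1 with DMSO and 87.5 and 133 in oocytes, again without overlap, and Nhp2, of H/ACA particles, rose to 17.9 and 19.4 CPM with aphidicolin against 2.28 and 0.940 in oocytes. Rrs1, another factor of the large subunit, was at 2.64 and 3.49 CPM with aphidicolin and 22.9 and 28.4 in oocytes, a fall that turned into a difference of 9.31 in the other direction when the 12-month oocytes replaced the 8-week ones. Oxidative phosphorylation genes were lower in 21 (26.9%) and higher in 1 (1.28%) of 78 tested entries with aphidicolin (27 and 3 with the block). Of all genes 8.08% were lower and 8.77% higher. The list's counts were the same with DMSO (26 and 2 with the block). Lower entries numbered 11 and 12 without aphidicolin replicate 1 or 2 and 13 without MII replicate 1. Higher ones numbered 3 without MII replicate 1 and 0 without aphidicolin replicate 2 or MII replicate 2. Uqcrc2, of complex III, was at 84.3 and 45.9 CPM with aphidicolin, 15.1 and 31.6 with DMSO and 375 and 645 in oocytes. All 15 genes of the mitochondrial genome had a negative difference from oocytes and 3 were called; none was called without either aphidicolin library or without MII replicate 2, whose mitochondrial share was the higher of the pair, and 9 were without MII replicate 1.

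Protein turnover, splicing, translation and stress lists held strong single changes, and their counts moved when a library was left out. Of all genes 8.77% were higher and 8.08% lower with aphidicolin, and several shares in these lists were near those. Of 48 proteasome genes 6 (12.5%) were higher and 10 (20.8%) lower with aphidicolin. The counts were 3 and 5 without aphidicolin replicate 2. The higher count was 1 without MII replicate 2. Psma2, of the core particle, was at 388 and 336 CPM with aphidicolin, 101 and 260.4 with DMSO and 2857 and 3718 in oocytes, and fell by 3.18 ± 0.47, opposite to the inhibitor gene Psmf1. Of 52 splicing genes 4 (7.69%) were higher and 16 (30.8%) lower than in oocytes, and none was called against DMSO (1 lower with the block). The higher ones became 2 without either aphidicolin library or MII replicate 1, and 1 without MII replicate 2. U2af1, which binds the 3′ splice site, was at 6.42 and 5.79 CPM with aphidicolin, 17.0 and 21.6 with DMSO and 170.4 and 206 in oocytes, and fell by 4.94 ± 0.44 (edgeR adjusted p = 0.000141) with no overlap among the 3 groups. Lsm5, of the ring that binds U6 RNA or decaying messages, was at 6.90 and 9.01 CPM with aphidicolin, 6.53 and 8.47 with DMSO and 148 and 197 in oocytes. Of 49 translation factors 11 (22.4%) were higher and 10 (20.4%) lower. The higher ones became 7 without MII replicate 1. Eif3e, of initiation factor 3, was at 43.8 and 23.1 CPM with aphidicolin, 8.99 and 16.9 with DMSO and 649.8 and 875 in oocytes and fell by 4.51 ± 0.48, in contrast to Eef1a1. Among 35 chaperones 3 (8.57%) were higher and 5 (14.3%) lower (5 and 9 with the block). The higher chaperones became 0 without MII replicate 2. They became 1 without aphidicolin replicate 1, MII replicate 1 or either MG132 library. The lower ones became 2 without aphidicolin replicate 1 or MII replicate 1, and 3 without aphidicolin replicate 2 or DMSO replicate 1. Hsp90aa1, a cytosolic chaperone, was at 1632 and 969 CPM with aphidicolin, 639 and 739 with DMSO and 19606 and 11492 in oocytes and fell by 3.58 ± 0.43. In the integrated stress response list 4 of 26 (15.4%) were higher and 2 (7.69%) lower. The counts were 2 and 1 without aphidicolin replicate 2 or MII replicate 1. The lower count was 1 without aphidicolin replicate 1 or either MG132 library, but 3 without either cycloheximide library or MII replicate 2. Ddit3, the factor CHOP, was at 26.7 and 43.6 CPM with aphidicolin, 27.1 and 36.2 with DMSO and 7.15 and 6.85 in oocytes and rose by 2.33 ± 0.41 in aphidicolin embryos (edgeR adjusted p = 0.00311), with the embryo groups overlapping. Dnajb9, an endoplasmic reticulum chaperone, was at 19.3 and 28.8 CPM with aphidicolin, 114 and 78.3 with DMSO and 8.62 and 8.01 in oocytes, the aphidicolin pair between oocytes and DMSO; its rise with aphidicolin (1.53, edgeR adjusted p = 0.0456) lost its call when any of 8 libraries of the fit was left out, aphidicolin, DMSO, MG132 or MII.

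**Figure D4:**
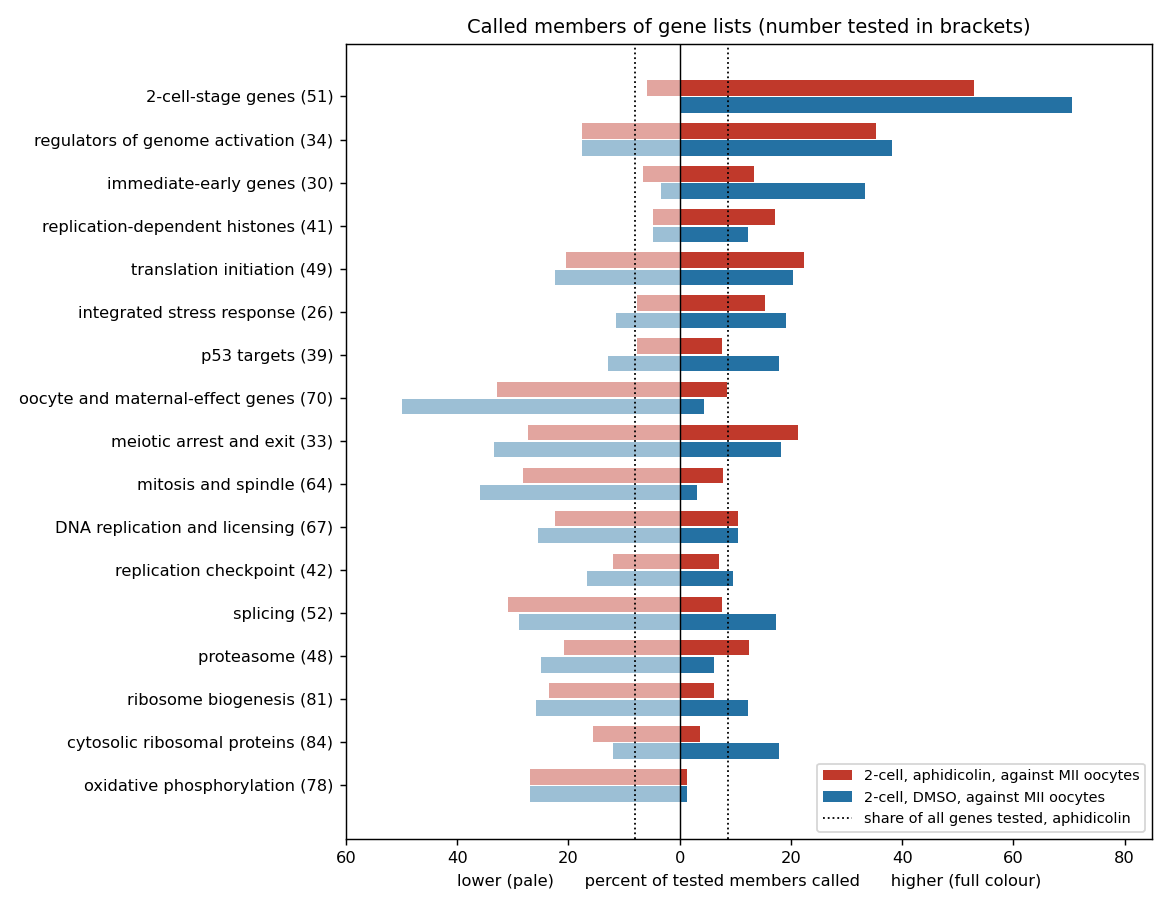
Percent of tested members of 17 gene lists called higher (right, full colour) or lower (left, pale) than in MII oocytes, in aphidicolin embryos (red) and DMSO embryos (blue); dotted lines mark the shares over all genes with aphidicolin, 8.77% and 8.08%. The 2-cell-stage genes have the longest bars to the right (27 and 36 of 51), the oocyte and maternal-effect genes the longest to the left (23 and 35 of 70).

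Some stage genes gave no usable comparison with oocytes. Eif1a was at 0.300 and 0.788 CPM with aphidicolin, 7.04 and 3.55 with DMSO and 6.84 and 2.60 in oocytes, with both aphidicolin values below the other 4 and no call against oocytes (edgeR adjusted p = 0.134). Gja1, a gap junction protein, was at 1.62 and 2.61 CPM with aphidicolin, 35.8 and 24.7 with DMSO and 45.8 and 0.166 in oocytes, so the oocyte pair itself disagreed. For Eif1a and Gja1 both aphidicolin values lay below both DMSO values, and neither gene was called. When 1 library was left out, the log2 difference from DMSO ran -4.08 to -2.65 for Eif1a and -4.18 to -3.52 for Gja1. Nanog, a pluripotency factor, was under 1 CPM in every library. Hspa1b, an inducible heat shock protein, was too low to be tested, with 0 and 8 counts in aphidicolin embryos, 48 and 4 in DMSO embryos and 5 and 3 in MII oocytes.

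Retrotransposon RNA was also higher in aphidicolin embryos than in oocytes, for a minority of subfamilies. Of 1011 subfamilies tested, 84 differed (8.31%) with aphidicolin, 67 higher (6.63%) and 17 lower (1.68%), or 95 and 33 with the replicate block; with DMSO 273 differed (27.0%), 256 higher (25.3%) and 17 lower (1.68%). The aphidicolin count was 19 without aphidicolin replicate 2, 20 without MII replicate 1 and 31 without MII replicate 2, and the DMSO count 145 and 110 without DMSO replicate 1 or 2 and 97 and 136 without MII replicate 1 or 2. Tested directly, no subfamily differed between aphidicolin and DMSO embryos without the block (unadjusted p under 0.05 for 4 higher and 98 lower ones; 38 lower by DESeq2), and MERVL-int, MT2_Mm and MERVL_2A-int were lower with it. The median log2 difference between aphidicolin and DMSO over all subfamilies was -0.44. A repeat count sums reads over many copies, some inside genes, and how reads matching more than 1 place were counted is not stated.

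MERVL-int, the coding part of the retrovirus of the 2-cell stage, was at 962 and 2274 CPM with aphidicolin, 20931 and 12783 with DMSO and 70.7 and 35.9 in oocytes. MT2_Mm, the long terminal repeat that serves as its promoter, was at 607 and 1910.3 CPM with aphidicolin, 9063 and 8491 with DMSO and 147 and 165 in oocytes. In both, all 3 groups were apart, with aphidicolin between oocytes and DMSO. MERVL-int rose by 4.92 ± 0.65 with aphidicolin relative to oocytes (edgeR adjusted p = 0.00145) and by 8.31 with DMSO, and MT2_Mm by 3.01 ± 0.49 and 5.81. The difference between aphidicolin and DMSO was -3.38 for MERVL-int (95% interval -4.69 to -2.07) and -2.80 for MT2_Mm (-3.85 to -1.75), with an edgeR adjusted p of 0.0538 for both, and of 0.0433 and 0.015 with the block. Summed over its subfamilies, the ERVL family took 0.396% and 0.810% of counts in aphidicolin embryos, 3.92% and 2.81% in DMSO embryos and 0.152% and 0.173% in MII oocytes. Of 99 ERVL subfamilies tested, 8 (8.08%) were higher than in oocytes with aphidicolin and 24 (24.2%) with DMSO. These shares are near the 6.63% and 25.3% over all subfamilies. Their median difference between aphidicolin and DMSO was -0.33, against -0.44 over all subfamilies.

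MTA_Mm-int and MTA_Mm, of the MT family of ERVL-MaLR retrotransposons abundant in oocyte transcripts, had another order of groups. MTA_Mm-int, chosen after its values were seen, was at 84804 and 54932 CPM with aphidicolin, 49191 and 57593 with DMSO and 6524 and 6016 in oocytes, with the 4 embryo libraries well above the oocytes and the 2 embryo groups overlapping. It rose by 3.48 ± 0.42 with aphidicolin (edgeR adjusted p = 0.000962) and by 3.09 with DMSO, and the difference was 0.39 (95% interval -0.45 to 1.22). MTA_Mm, its long terminal repeat, was at 21947 and 16987 CPM with aphidicolin, 12364 and 14777 with DMSO and 5482 and 5156 in oocytes, and its rise of 1.87 lost its call without either MII library. Summed over its subfamilies, ERVL-MaLR took 13.5% and 10.02% of counts in aphidicolin embryos, 8.53% and 9.53% in DMSO embryos and 1.45% and 1.36% in MII oocytes, so the aphidicolin pair was highest. Most single subfamilies did not have that order. Of 99 tested, 73 had a negative difference between aphidicolin and DMSO, with a median of -0.26 against -0.44 over all subfamilies. With aphidicolin 8 (8.08%) were higher than in oocytes and with DMSO 22 (22.2%), near the 6.63% and 25.3% over all subfamilies.

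LINE-1 elements, which transcribe themselves from an internal promoter, were higher in 10 (7.81%) and lower in 0 of 128 subfamilies with aphidicolin, and in 38 (29.7%) and 2 with DMSO. These shares of higher subfamilies are near the 6.63% and 25.3% over all subfamilies. L1Md_T was at 203 and 302 CPM with aphidicolin, 411 and 419 with DMSO and 37.5 and 39.1 in oocytes, with no overlap among the 3 groups, and rose by 2.72 ± 0.33 with aphidicolin (edgeR adjusted p = 0.000962) and 3.44 with DMSO. L1Md_Gf was at 14.2 and 19.6 CPM with aphidicolin, 48.9 and 31.6 with DMSO and 0.253 and 0.553 in oocytes in the same order, and rose by 5.38 ± 0.65 with aphidicolin. Their differences between aphidicolin and DMSO, -0.72 for L1Md_T and -1.25 for L1Md_Gf, did not pass the test (edgeR adjusted p = 0.454 and 0.418). SINE elements, transcribed by RNA polymerase III and also as parts of genes, were higher in 2 (5.71%) and lower in 1 of 35 subfamilies with aphidicolin. With DMSO 24 (68.6%) were higher. Over all subfamilies 6.63% were higher with aphidicolin and 25.3% with DMSO. All 35 had a negative difference between the embryo groups, with a median of -0.82 against -0.44 over all subfamilies and none called. Negative differences also prevailed in other classes, in 129 of 150 LINE, 142 of 172 DNA and 465 of 604 LTR subfamilies. B1_Mm was at 280.4 and 305 CPM with aphidicolin, 742 and 879.7 with DMSO and 288 and 224 in oocytes, the aphidicolin and oocyte values overlapping and the DMSO pair above them. B2_Mm2 was at 1038 and 1710.3 CPM with aphidicolin, 3679.7 and 5475 with DMSO and 7733 and 4451 in oocytes, lowest with aphidicolin; its log2 difference from oocytes of -2.15 ± 0.45 (edgeR adjusted p = 0.015) lost its call without aphidicolin replicate 1 or MII replicate 1. IAPEz-int, an active retrovirus-like element, was at 55.1 and 133 CPM with aphidicolin, 225 and 240.4 with DMSO and 71.1 and 50.7 in oocytes, with aphidicolin overlapping the oocytes and no call against them (edgeR adjusted p = 0.322). ORR1A0 was at 67.5 and 199 CPM with aphidicolin, 411 and 268 with DMSO and 41.4 and 54.3 in oocytes and passed against oocytes only with the block (edgeR adjusted p = 0.0784, and 0.0498 with the block). The satellite GSAT_MM was at 0.6004 and 0.606 CPM with aphidicolin, 25.3 and 5.15 with DMSO and 0 and 0.166 in oocytes, with no call for aphidicolin.

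Among the largest called changes, LTR16E1 was at 10.9 and 15.0 CPM with aphidicolin, 8.09 and 9.90 with DMSO and 0.507 and 0.0553 in oocytes and rose by 5.48 ± 0.79 with aphidicolin. RLTR13D3 was at 1.98 and 2.33 CPM with aphidicolin, 6.56 and 8.54 with DMSO and 31.6 and 18.1 in oocytes and fell by 3.52 ± 0.51, the 3 groups not overlapping. LTR80A and LTRIS3 were lower with aphidicolin, at 0.660 and 1.46 CPM with aphidicolin against 23.6 and 20.3 in oocytes for LTR80A and at 3.72 and 3.91 CPM with aphidicolin against 24.3 and 23.5 in oocytes for LTRIS3. LTR80A lost its call without any of the 4 libraries of the comparison, and LTRIS3 without either aphidicolin library or MII replicate 1; with 12-month oocytes in place of the 8-week ones LTRIS3 was higher, by 2.35.

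**Figure D5:**
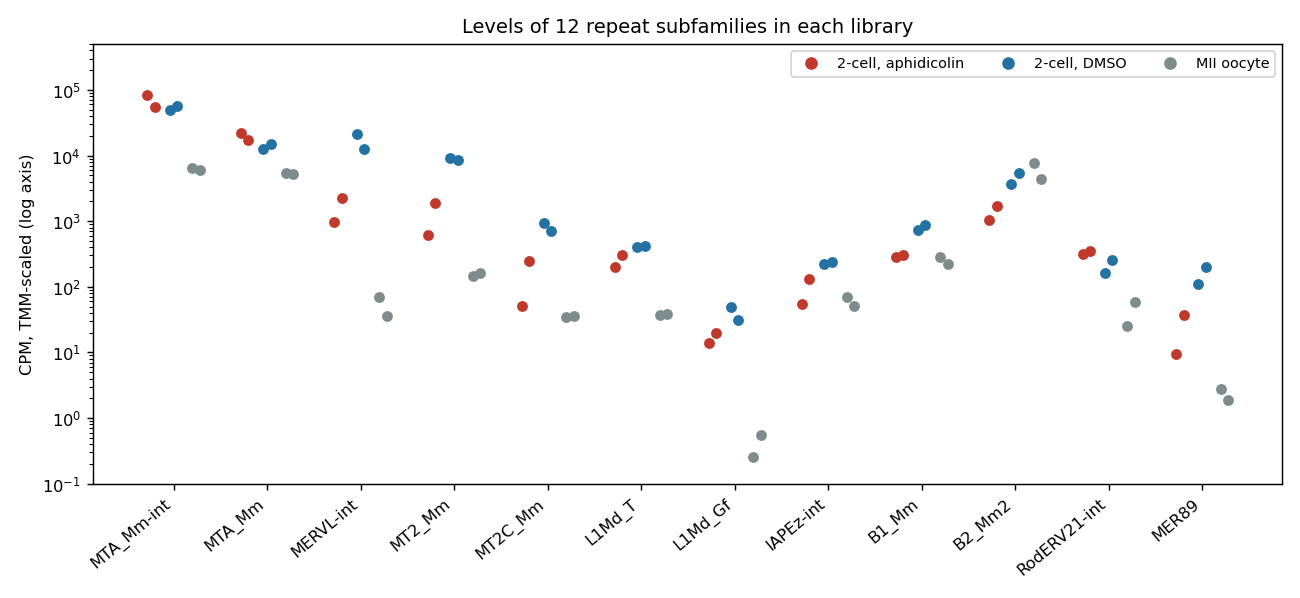
Level of 12 repeat subfamilies in each library (points; TMM-scaled CPM, log axis) in aphidicolin 2-cell embryos (red), DMSO 2-cell embryos (blue) and MII oocytes (grey). MTA_Mm-int lies as high with aphidicolin as with DMSO, whereas MERVL-int and MT2_Mm lie between the DMSO embryos and the oocytes.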

How the data were processed

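Polyadenylated RNA was sequenced after Smart-Seq2 amplification, per the labels' protocols. The authors deposited 1 table of raw counts per library, without a header and not normalized. Per the submitters' processing notes, cutadapt 1.16 and STAR were used with the build mm10. The sources used here do not name the counting tool, its annotation, its strand setting or its rule for multi-mapping reads, so genes with near-identical copies and overlapping or antisense genes are uncertain. Of the gene identifiers, 55154 matched GENCODE M21 once versions were dropped. Members, sets and lists were chosen with earlier results of these data known.

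The 2-cell aphidicolin, cycloheximide, MG132 and DMSO groups and the 8-week MII oocytes (10 libraries, 5 residual degrees of freedom, 14313718 to 29521531 counts each) were fitted together in edgeR 4.0.16 under R 4.3.3. Settings were filterByExpr (minimum count 10, minimum total 15), TMM over genes and repeats, and the robust quasi-likelihood F-test. Benjamini-Hochberg adjustment ran over genes and repeats separately, with a threshold of 0.05. Standard errors are the log2 fold change over the square root of F. Bounds against a group at 0 take 3 counts for that group and hold for counting error alone, as PCR copies cannot be recognised without molecular identifiers. The zygotic and maternal sets came from a separate edgeR fit of the 12-month libraries. The text names the 6 largest increases and decreases per contrast that kept their call without any 1 library, reached 10 CPM in a group, did not overlap and had no predicted-model symbol. It also names up to 4 called members of each list on the same level and overlap terms, index genes and subfamilies, and the 3 largest subfamily changes each way. Genes that differed between aphidicolin and DMSO embryos were added after their values were seen.

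Same-numbered libraries deviated together, with correlations of 0.142 to 0.446 over 10 pairs of groups and 8857 genes. The replicate numbers are therefore taken to pair libraries, from the data alone, for want of a label with a day or batch. Replicates of the fitted groups correlated at 0.955 to 0.978 (log2 CPM), and those of the 12-month groups at 0.9763 and 0.9845. The alternatives were DESeq2 1.42.0 and its size factors, other filters, library sizes from genes only, 4, 6 or 14 libraries in the fit, the replicate block, the 12-month oocytes, other set thresholds and leaving out each library.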

Additional observations from a re-analysis of the deposited data

Results flagged for a closer look

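In 7 genes the change from MII oocytes differed between aphidicolin and DMSO embryos by the direct edgeR test of that difference. Usp17lb was at 6.90 and 11.4 CPM with aphidicolin, 124 and 87.5 with DMSO and 0.710 and 0.884 in oocytes (log2 difference of aphidicolin from DMSO -3.52, edgeR adjusted p = 0.0289). Zscan4f was at 3.84 and 4.79 CPM with aphidicolin, 97.2 and 96.7 with DMSO and 0.507 and 0.221 in oocytes (-4.48, edgeR adjusted p = 0.0289). BB287469 was at 6.42 and 10.8 CPM with aphidicolin and 211 and 114 with DMSO, with 0 counts in MII oocytes (-4.23, edgeR adjusted p = 0.0289), and Gm2022 at 4.98 and 8.76 CPM with aphidicolin and 133 and 94.1 with DMSO, also with 0 counts in MII oocytes (-4.04, edgeR adjusted p = 0.0289). In these 4 genes both aphidicolin values were below both DMSO values, and relative to oocytes all 4 rose with either treatment.

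Gm2035 was at 1.501 and 2.49 CPM with aphidicolin, 59.4 and 77.0 with DMSO and 0 and 0.0553 in oocytes (-5.08, edgeR adjusted p = 0.0377). Zscan4-ps3 was at 0.901 and 2.00 CPM with aphidicolin, 249 and 76.3 with DMSO and 0.203 and 0.0553 in oocytes (-6.77, edgeR adjusted p = 0.041); its difference from oocytes did not pass with aphidicolin (edgeR adjusted p = 0.0516) and did with DMSO (0.000286). Efna1 was at 1.86 and 1.24 CPM with aphidicolin, 16.1 and 10.002 with DMSO and 79.1 and 68.3 in oocytes (-3.09, edgeR adjusted p = 0.0378), the single one of the 7 that fell relative to oocytes with either treatment. None of the 7 was called when aphidicolin replicate 1 or DMSO replicate 1 was left out, and all but Efna1 belong to the zygotic set of the 12-month libraries.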

How the results depend on the processing

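Against MII oocytes, the aphidicolin gene count ranged over 1628 to 4255 when 1 library was left out, and over 3394 to 5329 under the other alternatives, within 1.5 times the 3652 reported. The repeat count (84) was 165 with DESeq2, 19 with the 4 libraries of the comparison, 145 with 14 libraries, 128 with the replicate block and 228 with 12-month oocytes, and 19 to 111 without 1 library. For DMSO embryos the gene count ranged over 2083 to 5130 and the repeat count over 97 to 288 without 1 library, and the repeat count reached 411 with 12-month oocytes. Zygotic genes higher with aphidicolin numbered 1042 at a 2-fold and 364 at an 8-fold set threshold and 351 to 672 without 1 library; maternal genes lower with it numbered 1195, 265 and 384 to 661.

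Aphidicolin against DMSO depended most on the fit. The 7 genes became 304 with DESeq2, 388 without a low-count filter, 30 with a filter of 5 CPM, 0 with 4 or 6 libraries, 32 with 14, 39 with the replicate block and 37 with the block among 2-cell groups, and 0 to 57 without 1 library. The 0 repeats became 2, 38, 11, 2, 3, 3 and 2 with DESeq2 size factors, DESeq2, no filter, the 5 CPM filter, 14 libraries, the block and the 2-cell block, and 0 to 7 without 1 library. The 6 lower zygotic genes became 118 with DESeq2, 198 without a filter, 25 with the 5 CPM filter, 0 with 4 or 6 libraries, 23 with 14, 31 and 30 with the 2 blocks, and 0 to 49 without 1 library; the 0 higher maternal genes became 25 with DESeq2, 21 without a filter, 1 with 14 libraries and 0 to 2 without 1 library. Rrs1 (9.31) and LTRIS3 (2.35) reversed against 12-month oocytes. The cause was not tested. Of the named features' values against oocytes, 2455 kept direction and side of the threshold, 112 lost their call, 32 gained 1 and 2 reversed. The effects of the replicate block on counts are given beside them. Counts within lists moved by over 1.5 times in 186 of their values and not in 906. Fits with 1 library left in a group assume that it varies like the other groups. Their low-count filter also kept more genes, 23775 to 24908 against 21678 with all 10 libraries. Depth limits low genes most in aphidicolin replicate 1.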
